A study of Homo sapiens with 4 samples.

Results

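SASH1, 2 relatives of its SLY family of adaptor proteins and 6 described signalling partners were followed in MDA-MB-468 cells, a long-established line derived from a human triple-negative breast tumour, after hairpin depletion of SASH1. The genes were chosen by symbol: SASH1, SASH3, SAMSN1, CRKL, CRK, IQGAP1, GNAS, MAP3K7 and CTTN. Of these 9 genes, 8 had a row among the 26518 gene rows, and SAMSN1 was not analysed here. RNA-seq libraries came from cells infected with a pGIPZ lentivirus, a vector that expresses a short hairpin RNA, carrying either a control insert (shControl, 2 libraries) or a hairpin against SASH1 (shSASH1, 2 libraries), and both groups were puromycin-selected stable lines grown in DMEM with 5% FBS. The labels do not give the hairpin sequence, the number of hairpins, the time after selection, or whether a line is 1 clone or a pool, and do not name separate cultures behind the replicates. The p-values therefore measure only the spread between these libraries, which may be technical.

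SASH1 is a scaffold protein with an SH3 domain, which binds proline-rich peptides, and SAM domains, which bind one another. Its relatives SASH3 and SAMSN1 are known mainly from lymphocytes and other blood cells. The partners cover several signalling routes. CRK and CRKL are adaptors that link phosphorylated docking proteins to exchange factors of small GTPases. IQGAP1 is a scaffold for Rac1, Cdc42 and MAP kinases, and cortactin (CTTN) binds and stabilises branched actin made by the Arp2/3 complex. MAP3K7 encodes TAK1, the kinase that passes Toll-like and cytokine receptor signals to NF-kB and stress kinases, and GNAS encodes the stimulatory G protein subunit that activates adenylyl cyclase.

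Of the partners, CRKL and IQGAP1 are those whose transcripts rose after depletion, so the DNA just before their start sites is shown, together with that of CRK, the close relative of CRKL that did not pass. Each run is the 250 bases upstream of the start in RefSeq (GRCh38.p14), read 5′ to 3′ on the strand of the gene. The windows are chr22:20917157-20917406 (plus strand) for CRKL, chr15:90387992-90388241 (plus strand) for IQGAP1 and chr17:1456233-1456482 (minus strand) for CRK. Capitals mark matches on either strand to GGGCGG (the GC box), GGAATG (a TEAD core) or TGACG (the core of the cAMP response element). SASH1, which a hairpin targets as a transcript, has several RefSeq starts and is not shown.
CRKL: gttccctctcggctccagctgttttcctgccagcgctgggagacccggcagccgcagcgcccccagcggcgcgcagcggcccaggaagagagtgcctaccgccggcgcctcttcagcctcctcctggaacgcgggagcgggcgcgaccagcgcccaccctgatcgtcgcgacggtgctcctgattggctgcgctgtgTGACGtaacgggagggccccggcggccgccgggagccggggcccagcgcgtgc
IQGAP1: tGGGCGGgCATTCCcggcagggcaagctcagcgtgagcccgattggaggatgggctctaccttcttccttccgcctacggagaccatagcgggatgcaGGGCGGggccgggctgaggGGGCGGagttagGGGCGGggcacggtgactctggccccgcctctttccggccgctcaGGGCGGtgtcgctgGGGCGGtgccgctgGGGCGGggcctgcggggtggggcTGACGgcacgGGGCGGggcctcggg
CRK: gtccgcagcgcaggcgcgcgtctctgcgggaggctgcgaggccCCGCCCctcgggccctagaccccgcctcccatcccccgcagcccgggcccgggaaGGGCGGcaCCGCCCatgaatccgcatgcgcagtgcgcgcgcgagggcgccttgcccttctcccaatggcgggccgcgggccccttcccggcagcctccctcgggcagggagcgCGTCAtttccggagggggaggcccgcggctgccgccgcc
The CRKL window had 1 match, to the cAMP response element core, and 74.4% G and C. The IQGAP1 window held 8 GC boxes, 1 TEAD core and 1 cAMP response element core, at the same 74.4% G and C. In CRK there were 3 GC boxes and 1 cAMP response element core, at 78.8% G and C. Over all 35116 RefSeq windows of this length the median was 58.0% G and C, a GC box occurred in 42.6%, a TEAD core in 11.9% and a cAMP response element core in 21.2%. All 3 windows hold a TGACG match, that of CRK included, and a match describes letters only. Which start site the cells used was not measured.

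The values are TPM, a unit of transcript abundance. They divide reads by gene length and are scaled to one total per library. Read numbers rebuilt from them ranged from 19566651 to 24383873 per library. A mean of at least 1 TPM was needed for the test, limma on log2(TPM + 1) over all such genes, and log2 changes are shSASH1 minus shControl on that scale, which understates the change of low genes. Within a group, genes had a median SD of 0.0507 (shControl) and 0.126 (shSASH1) log2 units. All 9 epithelial markers looked at were expressed (summed level 7016 to 8278 TPM), led by KRT19, EGFR and KRT5. EGFR was at 1169 and 1075 TPM in shControl and 2191 and 2203 TPM in shSASH1 (limma adjusted p = 0.0034). The other epithelial markers did not reach an adjusted p under 0.05. Of the receptors that define this tumour type, PGR was listed at 0 in 3 libraries and at 0.0248 TPM in the fourth, and ESR1 lay between 2.29 and 3.64 TPM. ERBB2 was at 68.4 and 70.3 TPM in shControl and 28.98 and 38.3 TPM in shSASH1 (log2 change -1.04, limma adjusted p = 0.0106). Of the endothelial markers, 3 of 5 had a mean under 1 TPM (summed level 3.16 to 4.13 TPM), led by KDR, PECAM1 and CDH5, and of the fibroblast markers, 5 of 6 (summed level 6.34 to 11.0 TPM), led by COL1A1, PDGFRB and COL3A1.

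The hairpin target checks the labels. SASH1 (ENSG00000111961, a protein-coding gene on the plus strand of chromosome 6, 148272304 to 148552050, hg38) measured 15.0 and 13.0 TPM in shControl, against 3.65 and 4.01 TPM in shSASH1. Both depleted libraries lay below both controls, and 27.3% of the mean control level remained. The log2 change was -1.63 ± 0.13 (SE, n = 2 per group, limma adjusted p = 0.00391), with a 95% interval from limma's model of -1.99 to -1.28. In bulk RNA, fewer cells with a transcript and less transcript per cell cannot be told apart. Of the 14458 genes tested, 229 had a more negative change than SASH1. Without shControl replicate 1 the change was -1.54 (adjusted p = 0.106) and without shControl replicate 2 it was -1.73 (adjusted p = 0.104), as the spread then rests on the shSASH1 pair alone.

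The chromosomal surroundings of SASH1 were lower as well. Neighbours were summarised by their median level in each library, with every gene first centred on its own mean over the libraries. The neighbours' median given here and below is the shSASH1 mean of these medians minus the shControl mean. For the 67 other tested genes within 10 Mb of SASH1 on the long arm of chromosome 6 it was -0.33. The plain median of the log2 changes of all tested genes was 0.06. With the neighbours' median removed from each library, SASH1 still fell (log2 change -1.30, adjusted p = 0.00716). Among 11228 other genes averaging 5 TPM or more and with a current symbol, those with the profile nearest to SASH1 over the 4 libraries were ELOVL4, C1QL1, HCAR1, PC and CNN3-DT, at Euclidean distances of 0.0979 to 0.155 log2 units. ELOVL4, which elongates very long fatty acids and also lies on chromosome 6, stood at 21.3 and 17.3 TPM in shControl and at 5.46 and 5.51 TPM in shSASH1. PC, the mitochondrial enzyme pyruvate carboxylase, stood at 87.6 and 85.8 TPM and then at 27.7 and 26.9 TPM. Over only 4 libraries, such a likeness mainly picks genes that fell by a like amount.

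SASH3 (ENSG00000122122, chromosome X, 129779979 to 129795201, plus strand, protein-coding), the lymphocyte relative, was near the limit of detection. It was at 0.124 and 0.213 TPM in shControl and at 0.612 and 1.81 TPM in shSASH1. The groups did not overlap, but the depleted libraries differed from each other by 1.57 log2 units of TPM. These levels correspond to about 2 and 4 rebuilt reads in shControl and 11 and 26 in shSASH1, a ratio of 6.32 per sequenced read with an exact 95% interval of 2.64 to 18.3 that covers counting error only. Its mean kept it out of the test. With no filter on low values its log2 change was 0.87 (limma adjusted p = 0.128, where 18.4% of 21574 genes passed), and with voom, limma's weighting of read counts, on rebuilt reads it was 2.34 (adjusted p = 0.0737, where 33.6% of 16952 genes passed), so SASH3 passed in neither. The noncoding gene AL023653.1 on the same strand shares 118 exon bases with SASH3, and reads there cannot be told apart. Of 12 leukocyte markers, 8 had a mean under 1 TPM, with LAPTM5 listed at 0 in every library and PTPRC, the pan-leukocyte CD45 gene, listed at 0 TPM for both controls and at 0.0831 and 0.104 TPM in shSASH1. The list summed to 62.0 and 69.9 TPM in shControl and 46.3 and 110.5 TPM in shSASH1, with CD14, CORO1A and VAV1 as its most abundant genes. Of the 4 markers with a mean of at least 1 TPM, 3 passed. CD14, like SASH3, was highest in shSASH1 replicate 2 (96.5 TPM, against 33.2 to 39.9 TPM in the other libraries), and did not pass (limma adjusted p = 0.386). ITGB2, the beta2 integrin chain of leukocytes, was also highest there and rose from 1.49 and 1.89 TPM to 3.64 and 4.98 TPM (log2 change 0.97, adjusted p = 0.0307), while CORO1A and VAV1 fell (log2 changes -1.39 and -1.59). The part of other cells in the SASH3 reads was not tested.

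**Figure D1:**
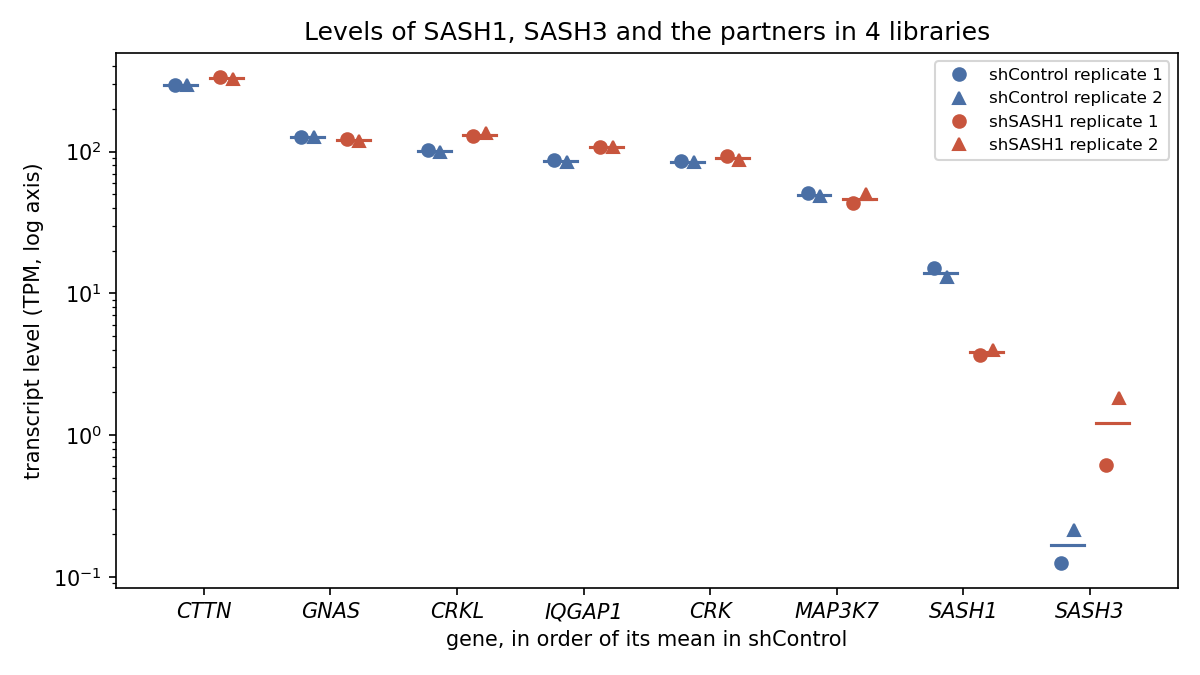
Transcript level (TPM, log axis) of 8 genes in each of the 4 libraries; circles are replicate 1, triangles replicate 2, and horizontal lines the group means. SASH1 drops from 15.0 and 13.0 to 3.65 and 4.01 TPM, SASH3 lies near the bottom of the axis with a wide gap between the shSASH1 libraries, and the ratio of the group means of the 6 partners runs from 0.936 to 1.30.

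The partners were all well expressed. In shControl the order per length was CTTN (296 ± 2.65 TPM, SD, n = 2), GNAS (127.6 ± 0.0569), CRKL (102 ± 2.17), IQGAP1 (86.1 ± 2.66), CRK (85.2 ± 0.148), MAP3K7 (49.9 ± 1.48) and then SASH1 (14.0 ± 1.38). IQGAP1 and CRK did not differ beyond their spread, since both CRK values fell between the IQGAP1 values, and the other neighbours in this order did not overlap. In shSASH1 CRKL (132 ± 5.48 TPM) stood above GNAS (121 ± 2.60 TPM), with no overlap of their libraries, and the rest of the order was the same. The order between genes depends on the length used. All annotated exons joined span 13320 bases in GNAS and 5325 in CRKL. By rebuilt reads in shSASH1, GNAS (10749 and 8321) stood above CRKL (4480 and 3791). Each partner was thus more abundant per length than SASH1 before depletion. A fall of SASH1, the hairpin target, widens this gap for any partner that does not fall with it. CRKL was 6.88 and 7.68 times the SASH1 level in control cells and 35.1 and 33.9 times in depleted cells. CRK, which did not pass, was 5.69 and 6.53 times that level and then 25.4 and 21.9 times.

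Of the 7 genes tested, 3 passed: SASH1 fell, and CRKL and IQGAP1 rose. Over all 14458 genes tested, 32.0% passed (18.8% higher and 13.3% lower in shSASH1). The count of 3 of 7 (42.9%) includes SASH1, the hairpin's own target. Of the 6 partners 2 passed, both higher, which is near the share over all genes. Of all calls 58.6% were higher, but 48.4% after quantile normalization and 47.4% with voom on rebuilt reads. The groups did not overlap for 6 of the 7, SASH1 among them, against 73.6% of all genes tested. The median log2 change of the 7, SASH1 included, was 0.08, against 0.06 over all tested genes. Without shControl replicate 1, or without shControl replicate 2, 0 of the 7 and 0 of all 14458 genes passed limma's adjusted threshold. At an unadjusted p under 0.05, 3 of the 7 (SASH1, CRKL and IQGAP1) and 3446 of all genes did without replicate 1, and 2 of the 7 (SASH1 and CRKL) and 3326 without replicate 2.

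CRKL (ENSG00000099942, chromosome 22, 20917426 to 20953749, plus strand, protein-coding), the adaptor whose upstream sequence is shown above, was at 103.2 and 100.1 TPM in shControl and at 128 and 136 TPM in shSASH1. Both depleted libraries lay above both controls, and the gap between groups was wider than that within either. The ratio of means was 1.30, with a log2 change of 0.37 ± 0.06 and limma adjusted p = 0.0154. Its 153 tested neighbours within 10 Mb had a median of -0.09, and relative to them CRKL rose by 0.47 (adjusted p = 0.0146). The call was lost without shControl replicate 1 (0.40, adjusted p = 0.170) and without shControl replicate 2 (0.35, adjusted p = 0.198).

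CRK (ENSG00000167193, chromosome 17, 1420689 to 1463162, minus strand, protein-coding), which shares its domain layout and many ligands with CRKL, was at 85.3 and 85.1 TPM in shControl and at 92.8 and 87.7 TPM in shSASH1. It did not pass (log2 change 0.08 ± 0.06, limma adjusted p = 0.343, 95% interval -0.08 to 0.24), and its direction turned under quantile normalization (-0.02). The ratio of CRKL to CRK, both per length, was 1.21 and 1.18 in control cells and 1.38 and 1.55 in depleted cells. The ratios did not overlap between groups, which follows from the CRKL and CRK values above and is no separate evidence. The exact two-sided permutation test cannot give a p below 0.333 with 2 libraries against 2.

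IQGAP1 (ENSG00000140575, chromosome 15, 90388218 to 90502243, plus strand, protein-coding), the scaffold for Rac1 and Cdc42, was at 88.0 and 84.3 TPM in shControl and at 108.6 and 107.8 TPM in shSASH1. The depleted libraries were nearly equal and both above the controls. The ratio of means was 1.26 (log2 change 0.33 ± 0.06, limma adjusted p = 0.0186), and the 92 tested neighbours had a median of -0.05. IQGAP1 did not pass without a variance trend (adjusted p = 0.0536), without shControl replicate 1 (0.36, adjusted p = 0.177) or without shControl replicate 2 (0.29, adjusted p = 0.228).

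CTTN (ENSG00000085733, chromosome 11, 70398404 to 70436584, plus strand, protein-coding), the most abundant of the genes followed, was at 293.9 and 297.6 TPM in shControl and at 335 and 325 TPM in shSASH1. The groups did not overlap, yet the log2 change of 0.16 ± 0.05 did not pass (limma adjusted p = 0.0837, 95% interval before adjustment 0.02 to 0.30). Without shSASH1 replicate 1 (0.14, adjusted p = 0.0362) or without shSASH1 replicate 2 (0.18, adjusted p = 0.0271) it did, as the spread then comes from the closely matched shControl pair.

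GNAS and MAP3K7 were the partners with lower means in shSASH1, and neither passed. GNAS (ENSG00000087460, chromosome 20, 58839718 to 58911192, plus strand, protein-coding), the stimulatory G protein subunit, was at 127.5 and 127.6 TPM in shControl and at 123 and 119 TPM in shSASH1, with no overlap (log2 change -0.07 ± 0.05, limma adjusted p = 0.335, 95% interval -0.22 to 0.07). An antisense gene, GNAS-AS1, shares 1127 exon bases with it and was at 0.104 TPM at most, and another, AL121917.1, shares 36 exon bases and was at 0.849 to 1.57 TPM. MAP3K7 (ENSG00000135341, chromosome 6, 90513573 to 90587045, minus strand, protein-coding), the TAK1 kinase gene, was at 50.9 and 48.8 TPM in shControl and at 43.2 and 50.1 TPM in shSASH1. Its groups overlapped, since shSASH1 replicate 2 lay within the control range (log2 change -0.10 ± 0.09, limma adjusted p = 0.464, 95% interval -0.35 to 0.15). The 46 tested neighbours of MAP3K7 had a median of -0.32, much like those of SASH1 on the same chromosome arm, and relative to them MAP3K7 stood at 0.23 (adjusted p = 0.0918), the opposite direction. Without shSASH1 replicate 1 its change was 0.01.

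**Figure D2:**
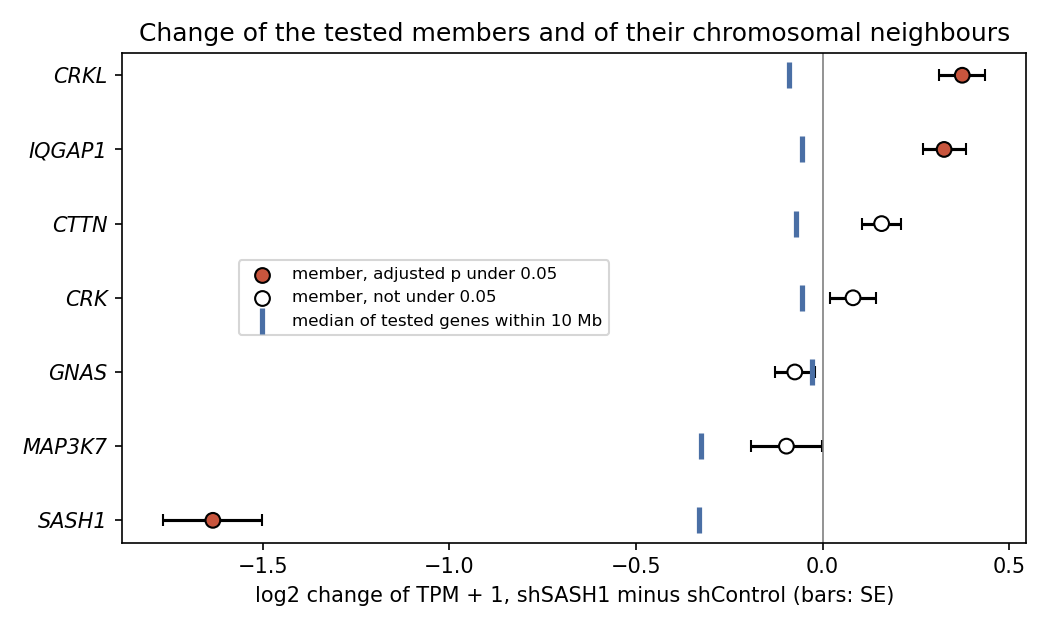
Log2 change (shSASH1 minus shControl) of the 7 tested genes with its SE. Filled points have an adjusted p under 0.05. Blue ticks give the difference between groups in the per-library median of other tested genes within 10 Mb. SASH1 at -1.63 lies far below its neighbours' -0.33, CRKL (0.37) and IQGAP1 (0.33) lie above theirs, and MAP3K7 (-0.10) lies above neighbours at -0.32.

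**Figure D3:**
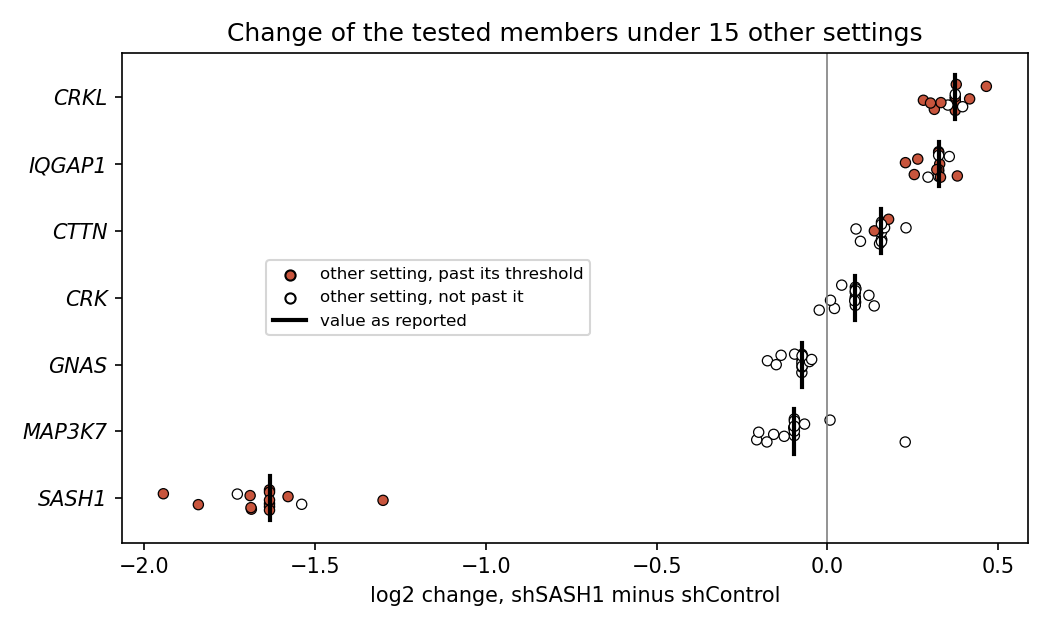
Log2 change of the 7 tested genes under each of 15 other settings (points, filled where past the threshold) and as reported (black line). SASH1 ranges from -1.94 to -1.30, CRKL from 0.28 to 0.47 and IQGAP1 from 0.23 to 0.38, while points of CRK and MAP3K7 fall on both sides of 0. Settings that alter only the filter, variance model, replicate block or minimum change keep the value as reported.

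The pathways around the partners were read from 5 lists with 106 tested genes, each gene counted once. Of these 30 rose and 7 fell, where 18.8% of all tested genes were higher and 13.3% lower. The split of all calls by direction depended on the normalization, as given above. Because 32.0% of all tested genes passed, the lists are described by their counts and medians only.

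Among the docking proteins and effectors of CRK and CRKL, 8 of 21 tested genes rose, 1 fell and 12 did not pass, with a median log2 change of 0.32. NEDD9, a docking protein whose phosphorylated tyrosines bind the SH2 domain of CRK proteins, went from 5.14 and 5.13 TPM to 67.7 and 80.9 TPM (log2 change 3.61 ± 0.11, limma adjusted p = 0.00151). It stood apart from its relatives: BCAR1, also known as p130Cas, was at 37.9 and 38.1 TPM in shControl, against 44.3 and 37.9 TPM after depletion, and missed the threshold (adjusted p = 0.436). ABL2, a kinase that phosphorylates CRK proteins, rose by 1.10, or by 0.56 relative to neighbours whose median was 0.54. The exchange factor SOS1 (0.93), the docking protein GAB1 (0.70) and the ubiquitin ligase CBLB (0.63) rose, as did the pseudokinase scaffold PEAK1 (0.55). The gene that fell was ELMO3 (-0.25), a member of the family that pairs with DOCK proteins to activate Rac1. ELMO1 was listed at 0 in every library. With replicate number as a block, 5 of these genes passed in place of 9.

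Of the IQGAP1 relatives and binding partners, 3 of 16 tested genes rose and 0 fell by limma's test, with a median of 0.09. At an unadjusted p under 0.05, 3 were lower, and with voom on rebuilt reads 3 fell and 3 rose. IQGAP3, a relative known from dividing cells, was at 114.4 and 110.3 TPM in shControl and 169 and 152 TPM in shSASH1 (log2 change 0.51 ± 0.08, limma adjusted p = 0.0123), among neighbours with a median of 0.32. The formin DIAPH1, which IQGAP1 binds, rose by 0.48, and the microtubule plus-end protein CLIP1 by 0.48. IQGAP2 stayed under 1 TPM, at 0.0217 to 0.252 TPM. CDC42 had a log2 change of -0.27 (adjusted p = 0.0533) and RAC1 of 0.07 (adjusted p = 0.333), and neither passed. The count of genes that passed was 5 under quantile normalization, and 7 without shSASH1 replicate 1 as well as without shSASH1 replicate 2.

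In the list of Gs, adenylyl cyclase and PKA genes, 7 of 24 tested genes rose and 1 fell, with a median of 0.24. PTGER4, a Gs-coupled prostaglandin E2 receptor, went from 3.22 and 3.49 TPM to 36.3 and 21.9 TPM (log2 change 2.74 ± 0.26, limma adjusted p = 0.00492). Its neighbours had a median of 0.53. CREM, a transcription factor of the cAMP response, fell from 12.1 and 13.2 TPM to 6.28 and 4.52 TPM (-1.11). The phosphodiesterase PDE4A rose by 1.08 and the PKA catalytic subunit PRKACB by 1.02, the latter among neighbours with a median of 0.53. The G protein subunit GNG12 (0.88) rose too, among neighbours with a median of 0.47. PRKACA, the other main catalytic subunit, was at 109.2 and 106.7 TPM in shControl, against 103.5 and 104.7 TPM after depletion, and missed the threshold (adjusted p = 0.495). Without shSASH1 replicate 1, 15 genes of this list passed in place of 8.

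Around TAK1, 7 of 23 tested genes rose and 2 fell, with a median of 0.12. TNFAIP3, the A20 deubiquitinase and feedback inhibitor of NF-kB, was at 4.65 and 4.46 TPM in shControl and 11.9 and 17.1 TPM in shSASH1 (log2 change 1.46 ± 0.20, limma adjusted p = 0.00996), while its 6q neighbours had a median of -0.26. MAP2K3, the kinase between TAK1 and p38, rose by 0.78, p38 itself (MAPK14) by 0.39, and the IKK scaffold IKBKG by 0.71. The neighbours' median was 0.09 for MAP2K3, 0.23 for MAPK14 and 0.21 for IKBKG. IRAK1, the receptor-proximal kinase, rose by 0.47 from 809 and 826 TPM to 1245 and 1028 TPM. MAPK9, which encodes JNK2, fell by 0.52, among neighbours with a median of -0.32. TAB3, a TAK1 binding subunit, fell from 21.8 and 20.2 TPM to 15.9 and 16.6 TPM (-0.35, adjusted p = 0.0433), among neighbours with a median of -0.48. Its fellow subunit TAB1 did not pass (-0.09, adjusted p = 0.361), nor did TRAF6 (-0.19, adjusted p = 0.119), the ubiquitin ligase that recruits TAK1. TLR4 was listed at 0 in every library. Relative to neighbours, 4 of these genes passed in place of 9, and without a variance trend 5 did.

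Of the cortactin and Arp2/3 genes, 6 of 24 tested rose and 3 fell, with a median of 0.07. Among subunits of the Arp2/3 complex itself, ARPC2 (0.67) and ARPC5 (0.61) rose and ARPC3 fell (-0.26). ARPC2 was at 106.6 and 106.9 TPM in shControl and 171 and 169 TPM in shSASH1, and its neighbours had a median of 0.45. For ARPC5 the neighbours' median of 0.55 was close to its own change. The complex's activators differed in direction. WASF2 rose (0.39), among neighbours with a median of 0.22. WASF1 fell (-0.82), from 41.2 and 44.0 TPM to 27.0 and 20.9 TPM, among neighbours with a median of -0.35. ARPIN, an inhibitor of the complex, fell by 0.47. ABL2, also on this list, rose as given above. HCLS1, the blood-cell relative of cortactin, stayed at 0.113 to 0.286 TPM.

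**Figure D4:**
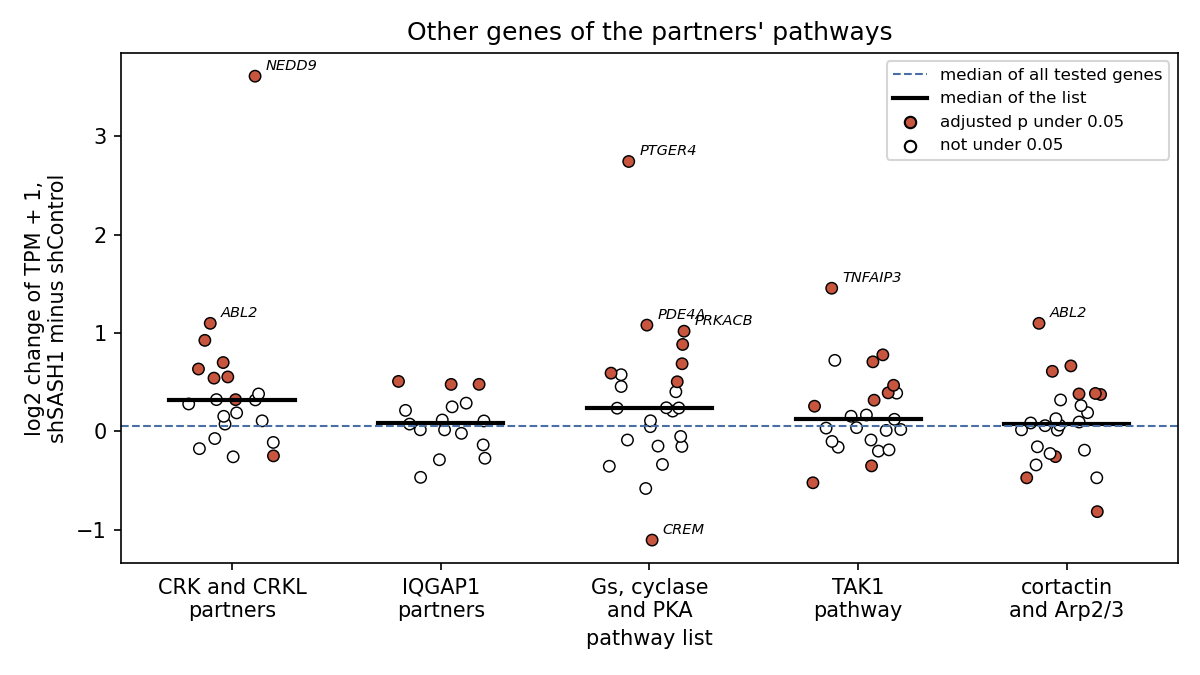
Log2 change (shSASH1 minus shControl) of the tested genes of 5 pathway lists; points are genes, filled where the adjusted p is under 0.05, black lines are list medians and the dashed line is the median of all tested genes (0.06). NEDD9 (3.61), PTGER4 (2.74) and TNFAIP3 (1.46) stand above the bulk of their lists, and list medians run from 0.07 to 0.32.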

How the data were processed

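RNA was extracted with TRIzol and libraries were made with an NEBNext Ultra kit, per the labels' protocols. Each deposited value is the TPM of 1 Ensembl gene in 1 library, and the listed rows sum to 910830 to 926711 TPM per library. The submitters' processing notes name STAR, DESeq2 and hg38, with no version or role. Which counter, annotation, gene lengths or strand setting was used is not given in the sources used here. A gene and an antisense partner therefore cannot be told apart.

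All 26518 identifiers were found in GENCODE 29 (hg38), and 25647 had a current symbol. Of the list genes, 2 had no row and were not analysed here. Libraries were grouped by title. The 14458 genes averaging 1 TPM or more were tested on log2(TPM + 1) by limma (version 3.58.1, R version 4.3.3), with a variance trend (2.54 prior degrees of freedom), two-sided, with Benjamini-Hochberg adjustment over all genes tested and a threshold of 0.05. The procedure was tested on simulated data in which both groups had the same spread. The real groups differed in spread (median SD 0.0507 in shControl and 0.126 in shSASH1), so that test does not cover this difference. Reads were rebuilt from TPM and exon-union lengths with a scale per library, by which 88.6% to 89.2% of values up to 20 reads came within 0.05 of a whole number; they are estimates. Sequences come from RefSeq (GRCh38.p14).

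The genes followed and the lists were chosen with earlier results of these data known. Genes named were all those followed, up to 6 passing genes per list by absolute log2 change, the 5 profiles nearest to SASH1 and the 3 most abundant markers per marker list. BCAR1, ELMO1, ELMO3, CDC42, RAC1, IQGAP2, PRKACA, TAB1, TRAF6, TLR4, TAB3, ARPC3, HCLS1, ITGB2, PTPRC and LAPTM5 were named beside these, with their values seen, and 1 gene that the rule would name is not reported here. Alternatives covered the pseudocount (0.1), low-value filters (none, or a mean of 5 TPM), scaling, variance model, replicate block, leaving out single libraries, a minimum absolute log2 change of 1, voom on rebuilt reads and centring on neighbours within 10 Mb. The voom fit with at least 10 rebuilt reads over the 4 libraries was added after the data were seen. Tables and plots were made in Python 3.11.15 (matplotlib 3.10.9, scipy 1.17.1, numpy 2.4.6, pandas 2.3.3).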

Additional observations from a re-analysis of the deposited data

How the results depend on the processing

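SASH1 fell under all 15 other settings, from -1.94 to -1.30, and passed in 13. The low-value filters, variance models, replicate block and minimum log2 change leave its value at -1.63 by design. They alter only whether it passes, so their shared direction adds nothing. Left-out libraries gave -1.73 to -1.54, and SASH1 did not pass without either shControl library (-1.54 and -1.73). The number of genes followed that passed was 3, and 0 to 4 with a library left out. With a minimum absolute log2 change of 1 it was 1, and 734 genes of the whole table were higher and 554 lower. With a library left out, the whole table had 0 to 4543 genes higher and 0 to 3185 lower, since the spread then comes from 1 pair. CRK turned to -0.024 under quantile normalization. MAP3K7 ranged from -0.20 to 0.0075 with a library left out, the latter without shSASH1 replicate 1, and turned to 0.23 relative to its neighbours; the cause was not tested. CRKL passed in 12 of 15 settings and IQGAP1 in 11. CTTN passed in 2 of 15 and GNAS in none by limma, its lowest adjusted p being 0.0714. The labels do not say whether libraries with the same replicate number were prepared together. Deviations of same-numbered libraries correlated at -0.032 across genes, and so few libraries cannot settle the question. With a replicate block 2372 genes were higher and 1557 lower by limma, with SASH1 (-1.63, adjusted p = 0.00556), CRKL and IQGAP1 still passing. Depth limits SASH3 most, at 2 to 26 rebuilt reads per library.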
